A study of Mus musculus with 8 samples.

Results

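A set of 10 peptidase genes was followed in mouse stroke infarcts, out of 46078 gene identifiers in the count tables. They encode secreted or lysosomal enzymes that trim peptides from an end, HtrA serine proteases and close relatives of both. Cpz, Htra3, Lvrn and Dpp7 were chosen by their transcript levels, which were higher after cyclodextrin in these same animals, and their values are therefore given as a description with no test. Cpe, Cpq, Cpxm1, Cpxm2, Htra1 and Prcp were added as family relatives, so that the members sharing the rise could be named. All 10 genes passed the filter on low counts, which asked for 0.563 CPM (counts scaled to a library of 1 M) in at least 4 libraries.

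RNA came from infarcts of 8 wild-type C57BL/6J male mice aged 18 months. Every animal had DH stroke, that is, permanent closure of the middle cerebral artery at a distal point with a spell of hypoxia afterwards. Starting 1 week later, 4 animals received subcutaneous phosphate-buffered saline (vehicle) and 4 received 4 g/kg 2-hydroxypropyl-β-cyclodextrin (HPβCD; HPBCD in the labels), a sugar ring that takes up cholesterol, 3 times a week for 6 weeks. Tissue was collected 7 weeks after stroke, when each infarct was found by eye and dissected by hand, so the amount of adjoining brain in a piece was not fixed. No group without stroke was analysed here.

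Carboxypeptidases remove amino acids from the C-terminal end of a protein, aminopeptidases from the N-terminal end, and dipeptidyl peptidases cut N-terminal residues off in pairs. The N/E metallocarboxypeptidases take off basic residues during the maturation of hormones and neuropeptides, although several members of this subfamily have lost detectable activity and are known as collagen-binding or matrix-associated proteins. HtrA proteases are serine proteases with a PDZ domain, and the secreted ones cleave proteoglycans and fibronectin and dampen TGF-β signalling.

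Promoter windows were available for 7 of the 10 genes, namely all but Lvrn, Cpe and Cpq, from RefSeq on GRCm38.p6, each running from 250 bases before to 50 bases after a gene start (300 bases). They are shown for 3 of the genes chosen for their rise, Dpp7, Cpz and Htra3. Each is written 5′ to 3′ on the minus strand, at chr2:25356283-25356582 for Dpp7, chr5:35525577-35525876 for Cpz and chr5:35679731-35680030 for Htra3. Capitals mark CACGTG, the core of the E-box read by many basic helix-loop-helix factors, which starts 73 bases before the start of Dpp7.
Dpp7: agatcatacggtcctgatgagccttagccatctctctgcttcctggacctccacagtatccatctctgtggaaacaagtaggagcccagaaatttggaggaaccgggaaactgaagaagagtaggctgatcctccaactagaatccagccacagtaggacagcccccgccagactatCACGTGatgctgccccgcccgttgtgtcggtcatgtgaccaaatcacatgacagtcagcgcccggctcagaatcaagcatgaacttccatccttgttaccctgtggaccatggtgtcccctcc
Cpz: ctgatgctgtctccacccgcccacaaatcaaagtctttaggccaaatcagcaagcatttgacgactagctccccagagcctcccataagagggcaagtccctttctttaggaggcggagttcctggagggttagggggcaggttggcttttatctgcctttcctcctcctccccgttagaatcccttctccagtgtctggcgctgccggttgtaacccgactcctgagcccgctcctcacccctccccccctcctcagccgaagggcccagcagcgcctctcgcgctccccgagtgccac
Htra3: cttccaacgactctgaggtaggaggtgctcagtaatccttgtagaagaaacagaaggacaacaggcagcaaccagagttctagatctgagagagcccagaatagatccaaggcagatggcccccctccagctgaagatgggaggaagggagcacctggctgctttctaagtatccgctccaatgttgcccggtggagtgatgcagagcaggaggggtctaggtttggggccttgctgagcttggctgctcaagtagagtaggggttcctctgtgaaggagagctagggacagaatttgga
CACGTG reads the same on both strands, and it was found in 2349 of 32851 promoter windows (7.15%). Among the 7 member windows it was found in that of Dpp7 alone. TGANTCA, the core bound by AP-1 factors, also reads the same on both strands, and was present in 2565 windows (7.81%) but in none of the 7. Of the wider peptidase families, windows of Ctsa (the lysosomal carboxypeptidase cathepsin A), Acy1, Dpp8 and Erap1 also held CACGTG. A match of letters is a description of the window and not of a binding event.

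Library totals lay between 16.6 M and 19.4 M gene counts, except for vehicle animal 2 with 32.9 M. Vehicle animals 1 and 3 stood apart from the other 6. The summed level of the 10 listed neuron markers (8 of them tested) was 1423 and 8516 CPM in these 2 animals and between 6.92 and 102 CPM in the rest. The 8 astrocyte markers summed to 2318 to 9884 CPM in vehicle and 709 to 2702 CPM in HPβCD animals. No gene of these 2 lists was called by edgeR, but all 16 log2 fold changes were below 0 and the unadjusted p was under 0.05 for 8 neuron and 6 astrocyte genes. DESeq2, which tests more low-count genes, called 9 neuron and 5 astrocyte genes lower, and limma-voom 0 and 7. Of the 9 tested fibroblast markers, 8 had a log2 fold change above 0 and 2 were called higher (Col1a1 and Col1a2). The summed level of all 10 listed fibroblast markers was 2545 to 6359 CPM in vehicle and 9105 to 9682 CPM in HPβCD animals. DESeq2 and limma-voom each called 5 fibroblast markers higher and 1 lower. Slc6a13, a GABA transporter of meningeal fibroblasts, went the other way, with means of 15.8 and 8.83 CPM without overlap (log2 fold change -0.84, adjusted p = 0.0502). Dpt, a defining fibroblast marker, was near 0 in both groups, with means of 0.229 and 0.206 CPM. The foamy macrophage list summed to 7045 to 12510 CPM in vehicle and 15460 to 25270 CPM in HPβCD animals, with 7 of 8 log2 fold changes above 0 and 1 gene, Gpnmb, called higher. Lower calls by edgeR were found in the B lymphocyte list (Cd79a, Cd79b and Blk, with all 8 log2 fold changes below 0), the plasma cell list (Jchain, log2 fold change -4.00) and the microglia list (Siglech, -2.40). Oligodendrocyte markers had a median log2 fold change of -1.90 with 7 of 8 below 0, and edgeR called 0 (0 also at an unadjusted p under 0.05), DESeq2 1 lower and limma-voom 7 lower. Over all tested genes, edgeR called 1.17% higher and 0.774% lower. An unadjusted p under 0.05 was found for 11.8% and 16% in these directions, and 45.9% had a log2 fold change above 0. DESeq2 called 5.92% of its genes higher and 11.1% lower, and limma-voom 10.9% and 11.1%. The part of these cell types in the results below was not tested. In bulk tissue, more cells of a type and more RNA per cell cannot be told apart.

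Among the 6 relatives, Cpxm1 and Cpxm2 were called higher after HPβCD (edgeR, adjusted p under 0.05) and Htra1, Prcp, Cpq and Cpe were not called. Of all 14736 tested genes, 1.17% were called higher and 0.774% lower. The 4 chosen genes also fell under the threshold, which follows from how they were chosen and is read as nothing more, so that 6 of the 10 genes carried a call and none was called lower. Cpe was the 1 gene of the 10 with an unadjusted p under 0.05 in the lower direction, as had 16% of all tested genes (11.8% in the higher direction), and it was called lower by limma-voom with sample quality weights but not by DESeq2. limma-voom called 10.9% of all genes higher and 11.1% lower. The 2 groups did not overlap, with HPβCD higher, in 3 of the 6 relatives, against 8.77% of all tested genes, and in the 4 chosen genes. The median log2 fold change was 0.49 over the 6 relatives and -0.05 over all tested genes.

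**Figure D1:**
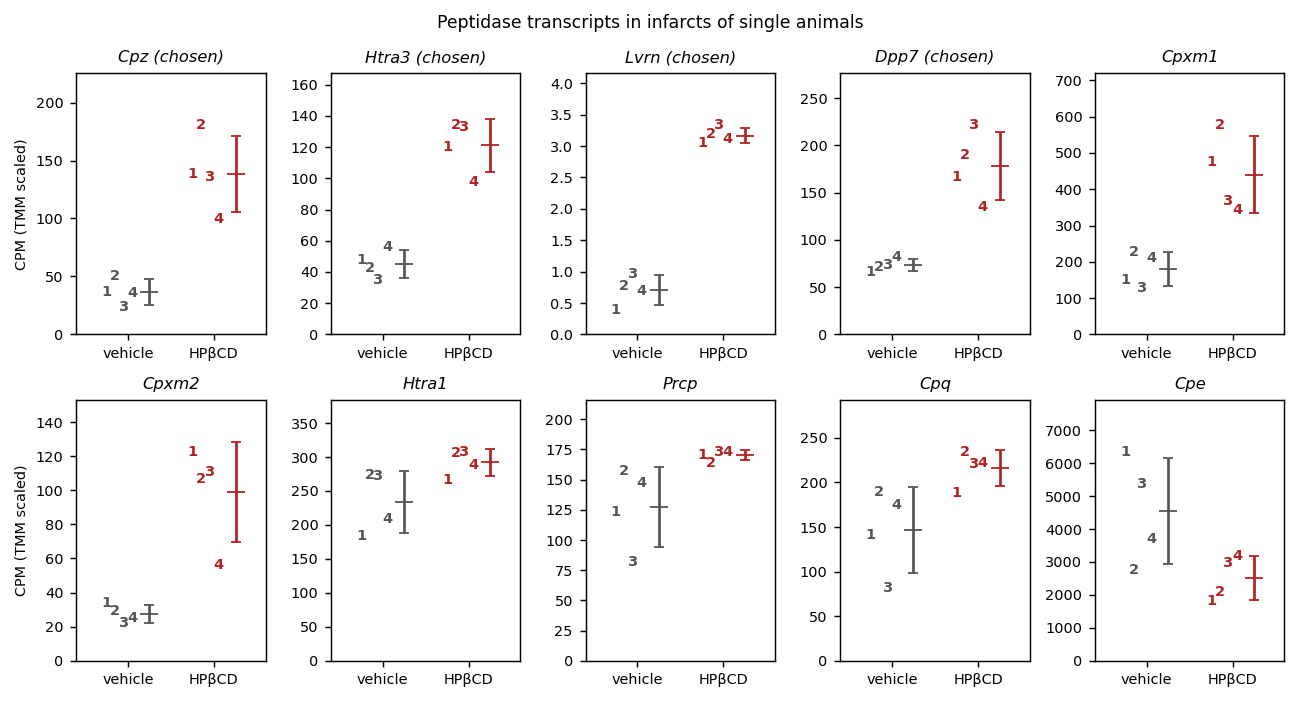
CPM of the 10 peptidase genes in every animal, in vehicle and HPβCD animals (n = 4 each), 1 panel per gene with its own axis starting at 0; the digits are single animals by number and the bars beside them are the mean and SD. The groups are apart for Cpz, Htra3, Lvrn, Dpp7, Cpxm1, Cpxm2 and Prcp and overlap for Htra1, Cpq and Cpe.

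Cpz (ENSMUSG00000036596, chromosome 5, 35502218 to 35525698, minus strand, GRCm38) encodes carboxypeptidase Z, a secreted metallocarboxypeptidase whose cysteine-rich domain resembles that of Frizzled receptors and binds Wnt proteins. It read 36.7, 50.6, 23.6 and 36.0 CPM in vehicle animals 1 to 4 and 138, 180.2, 136 and 99.8 CPM in HPβCD animals 1 to 4. The lowest HPβCD animal thus stood well above the highest vehicle animal. The means were 36.8 ± 11.0 and 138 ± 32.9 CPM (SD, 4 animals each), and the estimated log2 fold change was 1.91 (SE 0.26).

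Htra3 (ENSMUSG00000029096, chromosome 5, 35652023 to 35679782, minus strand) encodes a secreted HtrA protease that antagonises TGF-β family signals. Vehicle animals 1 to 4 had 47.9, 42.6, 34.6 and 55.7 CPM, and HPβCD animals 1 to 4 had 120.0, 134, 133 and 97.6 CPM. Here too every HPβCD animal was above every vehicle animal, and HPβCD animal 4 was again the lowest of its group. From 45.2 ± 8.88 to 121 ± 16.9 CPM, its log2 fold change was 1.42 (SE 0.18).

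Dpp7 (ENSMUSG00000026958, chromosome 2, 25352276 to 25356359, minus strand) encodes dipeptidyl peptidase 2, a serine peptidase of lysosomes and related vesicles that cuts after proline. Its level was 65.8, 71.8, 74.0 and 81.6 CPM in the vehicle animals and 167, 189.8, 221 and 135 CPM in the HPβCD animals. The vehicle animals lay close together and the HPβCD animals spread more widely above them. Its log2 fold change was 1.28 (SE 0.17), from 73.3 ± 6.53 to 178 ± 36.4 CPM.

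Lvrn (ENSMUSG00000024481, chromosome 18, 46850038 to 46907242, plus strand) encodes laeverin or aminopeptidase Q, a membrane aminopeptidase best known from placental trophoblast. It was by far the scarcest of the 10, with raw counts of 7, 27, 16 and 13 in the vehicle animals and 53, 52, 62 and 56 in the HPβCD animals. These are 0.396, 0.775, 0.969 and 0.699 CPM against 3.05, 3.19, 3.33 and 3.11 CPM, so the HPβCD animals were nearly alike and all above vehicle. Its log2 fold change was 2.15 (SE 0.29), the highest of the 10 as an estimate. Lvrn reached the filter level in 3 of 4 vehicle and 4 of 4 HPβCD libraries, while the other 9 genes reached it in all 8.

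Cpxm2 (ENSMUSG00000030862, chromosome 7, 132032687 to 132154739, minus strand) and Cpxm1 (ENSMUSG00000027408, chromosome 2, 130390775 to 130397574, minus strand) were the 2 relatives called higher. Both encode secreted N/E family proteins with a discoidin domain and no detectable carboxypeptidase activity toward standard substrates. Cpxm2 had 34.1, 29.3, 22.0 and 24.9 CPM in vehicle animals 1 to 4 and 123, 107, 111 and 55.9 CPM in HPβCD animals 1 to 4. HPβCD animals 1 to 3 lay close together and animal 4 was between them and vehicle. Means were 27.6 ± 5.26 and 99.1 ± 29.5 CPM, a log2 fold change of 1.85 (SE 0.26, adjusted p = 0.0389). Exons of the opposite-strand gene Gm15677 overlap 7.59% of its exonic length, and reads of the 2 cannot be told apart if strand was not used in the counting.

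Cpxm1 had 151, 226, 129 and 212 CPM in the vehicle animals and 476, 576, 367 and 343 CPM in the HPβCD animals. The groups did not overlap, although vehicle animals 2 and 4 were higher than vehicle animals 1 and 3. The log2 fold change was 1.30 (SE 0.24, adjusted p = 0.0483), from 179 ± 46.7 to 440 ± 107 CPM. Without vehicle animals 1 and 3 it was 1.02 with an adjusted p of 0.0635, and the calls of the other 5 genes remained. The log2 ratio of Cpxm1 to Cpxm2 was 2.68 ± 0.425 in vehicle and 2.18 ± 0.413 in HPβCD animals, and the groups overlapped. The difference of -0.50 did not pass (2-sided exact permutation test, p = 0.143, and 0.143 adjusted over 2 ratios). Without vehicle animals 1 and 3 this difference was -0.83 (exact permutation p = 0.133, where 2 against 4 cannot go below 0.0667).

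The calls sat close to the threshold, as the smallest adjusted p of any gene was 0.0222. No peptidase was called when vehicle animal 1 or 4, or HPβCD animal 1, 2 or 3, was left out, and in 4 of these 5 fits edgeR called no gene of the whole table. Between 6 and 9 of the 10 genes still had an unadjusted p under 0.05 in those fits. All 6 calls were kept without vehicle animal 2 or 3 or HPβCD animal 4, and DESeq2 called the same 6. Of all genes with an adjusted p from DESeq2, 5.92% were called higher and 11.1% lower.

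**Figure D2:**
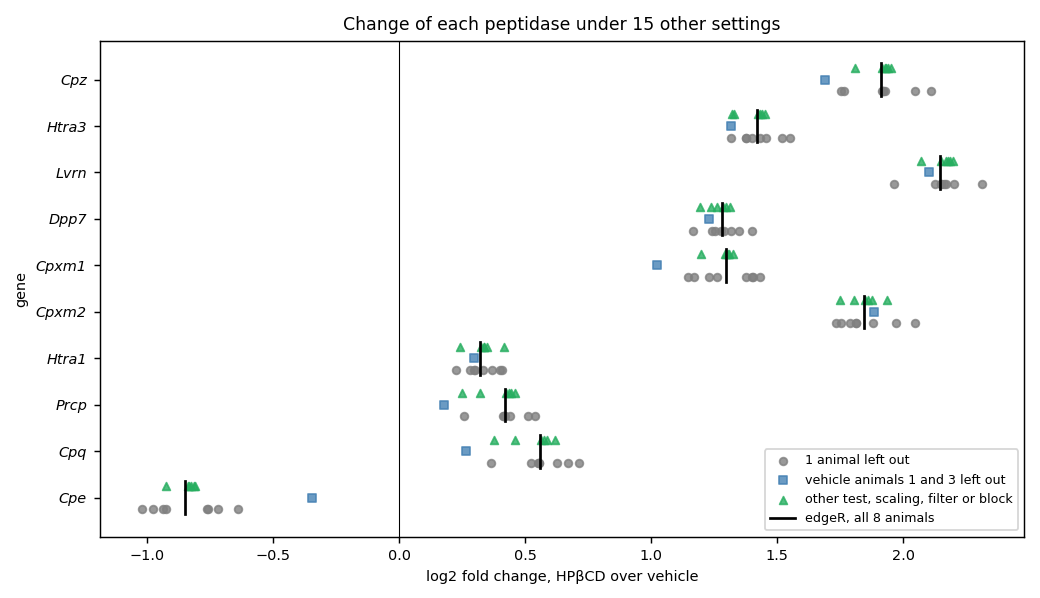
Log2 fold change of each peptidase gene (HPβCD over vehicle, horizontal axis) with all 8 animals in edgeR (black line), with 1 animal left out (grey circles), with vehicle animals 1 and 3 left out (blue squares) and under another test, scaling, filter or block (green triangles). Every point of a gene lies on the same side of 0, with Cpz between 1.69 and 2.11 and Cpe between -1.02 and -0.345.

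Htra1 (ENSMUSG00000006205, chromosome 7, 130936111 to 130985660, plus strand), whose loss causes a hereditary small-vessel disease of the brain, encodes the most abundant secreted HtrA protease here and was not called. Its level was 184, 273, 272 and 208 CPM in the vehicle animals and 266, 306, 308 and 289 CPM in the HPβCD animals. The HPβCD animals sat at the top of the range, but HPβCD animal 1 was below vehicle animals 2 and 3. The log2 fold change was 0.32 (SE 0.16, adjusted p = 0.244). The log2 ratio of Htra3 to Htra1 was -1.94, -2.68, -2.97 and -1.90 in vehicle animals and -1.15, -1.19, -1.21 and -1.56 in HPβCD animals, without overlap, a difference of 1.09 that is given as a description because Htra3 was chosen for its rise.

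Prcp (ENSMUSG00000061119, chromosome 7, 92874470 to 92934583, plus strand) encodes a lysosomal carboxypeptidase that cleaves after proline, with angiotensin II among its substrates, and belongs to the same family as Dpp7. It had 123, 157, 82.0 and 147 CPM in vehicle animals and 171, 164, 173 and 173 CPM in HPβCD animals. The groups did not overlap, but vehicle animal 2 and HPβCD animal 2 were only a few CPM apart. The log2 fold change of 0.42 (SE 0.20) was not called (adjusted p = 0.204), and it was 0.18 without vehicle animals 1 and 3. The log2 ratio of Dpp7 to Prcp averaged -0.76 ± 0.424 in vehicle and 0.04 ± 0.313 in HPβCD animals, and the groups overlapped.

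Cpq (ENSMUSG00000039007, chromosome 15, 33083129 to 33594552, plus strand) encodes a secreted and lysosomal dipeptidase related to glutamate carboxypeptidase II. Its level was 141, 189.8, 82.0 and 174 CPM in vehicle animals and 188, 234, 221 and 222 CPM in HPβCD animals. Vehicle animal 3 was the lowest by a wide margin and vehicle animal 2 reached the level of HPβCD animal 1. The log2 fold change was 0.56 (SE 0.24, adjusted p = 0.177), or 0.26 without vehicle animals 1 and 3. Exons of the opposite-strand gene 4930592A05Rik overlap 3.18% of its exonic length.

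Cpe (ENSMUSG00000037852, chromosome 8, 64592542 to 64693054, minus strand) encodes carboxypeptidase E, which finishes prohormones and neuropeptides in the dense-core granules of neurons and endocrine cells and is also made by astrocytes. It was the most abundant of the 10 and the only one with a log2 fold change below 0. Vehicle animals 1 to 4 had 6345, 2767, 5354 and 3690 CPM, and HPβCD animals 1 to 4 had 1826, 2073, 2980 and 3184 CPM. The 2 highest levels were in vehicle animals 1 and 3, and vehicle animal 2 was below HPβCD animals 3 and 4. The log2 fold change was -0.85 (SE 0.31, adjusted p = 0.123), and it was -0.345 without vehicle animals 1 and 3. Relative to Cpd, which encodes the broadly expressed carboxypeptidase of the trans-Golgi network, the log2 ratio of Cpe was 3.71 ± 0.893 in vehicle and 2.41 ± 0.401 in HPβCD animals. The difference of -1.29 did not pass (2-sided exact permutation test, p = 0.0571, 0.114 adjusted over 2 ratios, where 0.0286 is the smallest p that 4 against 4 can give). Without vehicle animals 1 and 3 it was -0.56 (exact permutation p = 0.200).

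Levels were compared between genes as mean CPM per kb of exonic length. In vehicle animals Cpe was highest at 1740 ± 618 (SD), followed by Htra1 at 81.3 ± 15.8, Cpxm1 at 73.7 ± 19.2, Cpq at 29.2 ± 9.5, Prcp at 23.2 ± 6.08, Dpp7 at 22.0 ± 1.96, Cpz at 16.4 ± 4.92, Htra3 at 10.2 ± 2.0, Cpxm2 at 5.96 ± 1.14 and Lvrn at 0.135 ± 0.0451. Htra1 did not differ from Cpxm1 beyond the SDs, nor did any neighbours from Cpq down to Htra3. In HPβCD animals the order was Cpe at 964 ± 256, Cpxm1 at 181 ± 44.0, Htra1 at 101 ± 6.79, Cpz at 61.7 ± 14.6, Dpp7 at 53.4 ± 10.9, Cpq at 43.0 ± 3.96, Prcp at 31.0 ± 0.759, Htra3 at 27.3 ± 3.81, Cpxm2 at 21.4 ± 6.39 and Lvrn at 0.600 ± 0.0230. Here Cpz, Dpp7 and Cpq were within the SDs of their neighbours, as were Prcp, Htra3 and Cpxm2. Cpxm1 and Htra1 changed places, and Cpz stood above Dpp7, Prcp and Cpq, all of which had been above it in vehicle.

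The animals did not all place the genes alike. On log2 CPM centred on the mean of the 8 animals, HPβCD animal 4 had the lowest value of its group for Cpz, Htra3, Dpp7, Cpxm1 and Cpxm2, but not for Lvrn, Prcp or Cpq. In vehicle animal 3 the centred value was -1.55 for Cpz, -1.20 for Cpxm2, -1.09 for Cpxm1, -1.08 for Htra3 and -1.08 for Cpq. Fibroblast scores, the mean centred log2 CPM of the marker list, also had their lowest value in that animal (-1.17).

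**Figure D3:**
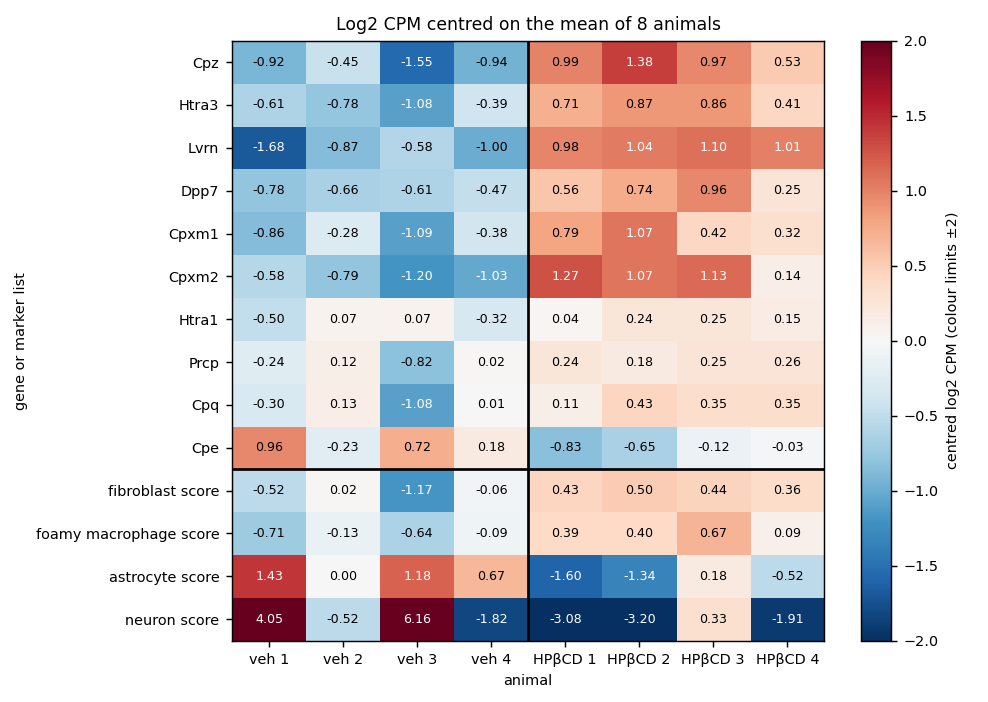
Log2 CPM of the 10 peptidase genes and the mean of 4 marker lists, each centred on the mean of the 8 animals (columns; red above and blue below the mean, colours limited to ±2). Cpe is high in vehicle animals 1 and 3, at 0.96 and 0.72, where the neuron score reads 4.05 and 6.16.

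Set against the fibroblast score in the same animal, the centred level of Cpz was higher in HPβCD by 1.06 with no overlap between groups. The difference was 1.20 for Lvrn, 0.93 for Cpxm2, 0.56 for Htra3, 0.44 for Cpxm1 and 0.40 for Dpp7, and the groups overlapped for all 5. Cpe (-1.68), Prcp (-0.41) and Cpq (-0.24) were lower relative to that score in every HPβCD animal than in every vehicle animal. Against the foamy macrophage score, Cpz (1.15), Lvrn (1.28), Htra3 (0.65) and Dpp7 (0.48) were higher without overlap. These are the 4 genes chosen for their rise, so this is read as nothing more. Cpxm2 (1.02) and Cpxm1 (0.52) were higher with overlap, and Cpe (-1.6) was lower without overlap. Htra1 (-0.44), Prcp (-0.32) and Cpq (-0.15) were lower with overlap. These differences are descriptions on the log2 scale and carry no test.

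Each gene was then read within its family. The 8 peptidase family lists held 67 genes, of which 55 were tested, and outside the 10 members 4 of 45 tested genes were called higher (Aebp1, Scpep1, Anpep and Lta4h) and 0 lower. At an unadjusted p under 0.05 these numbers were 14 and 5, with DESeq2 10 and 5, and with limma-voom 11 and 2. Over all genes the shares were 11.8% and 16% at that unadjusted p, 5.92% and 11.1% with DESeq2, and 10.9% and 11.1% with limma-voom. Of these 45 genes, 13 had HPβCD animals above vehicle without overlap, 28 had a log2 fold change above 0, and the median was 0.165. Among all tested genes 8.77% had HPβCD animals above vehicle without overlap, 45.9% had a log2 fold change above 0, and the median was -0.05. edgeR called 1.17% of all tested genes higher and 0.774% lower.

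In the N/E metallocarboxypeptidases, 7 of 8 genes were tested and 4 were called higher, namely Cpz, Cpxm1, Cpxm2 and Aebp1. Aebp1, which encodes the collagen-binding secreted protein ACLP, had 241, 331, 262 and 305 CPM in the vehicle animals and 698, 797, 834 and 497 CPM in the HPβCD animals. Its log2 fold change was 1.31 (SE 0.20, adjusted p = 0.0427). The family members that process hormones in the secretory pathway were not called. Cpe is described above, and Cpd went from 342 to 461 CPM (log2 fold change 0.43, adjusted p = 0.227). The membrane carboxypeptidase Cpm had a log2 fold change of -0.75 (adjusted p = 0.107). The unadjusted p of edgeR was under 0.05 for 4 genes of this family in the higher direction and 2 in the lower, Cpe and Cpm. DESeq2 called 4 higher and 0 lower, and limma-voom 4 higher and 2 lower. The log2 ratio of Cpz to Aebp1 was higher in every HPβCD animal than in any vehicle animal, by 0.636 on average. The highest vehicle value was -2.708 and the lowest HPβCD value -2.62. This is a description with no test, because Cpz was chosen for its rise.

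Of the 5 serine carboxypeptidase and proline-cutting relatives, all tested, Dpp7 and Scpep1 were called higher. Scpep1, retinoid-inducible serine carboxypeptidase 1 of the lysosome, had 96.1, 115, 119.7 and 122 CPM in the vehicle animals and 286, 255, 317 and 179 CPM in the HPβCD animals. Its log2 fold change was 1.20 (SE 0.19, adjusted p = 0.0427). Ctsa, which protects β-galactosidase and neuraminidase in lysosomes, averaged 240.0 ± 23.5 and 392 ± 85.3 CPM, with no overlap but an adjusted p of 0.0659. Prss16, the thymus-specific serine protease, had a log2 fold change of -0.09.

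The 4 HtrA genes all had log2 fold changes above 0, and edgeR called Htra3 alone. DESeq2 and limma-voom each called 2 of them higher, but not the same 2. Htra1 was called by limma-voom (adjusted p = 0.0446) and not by DESeq2 (adjusted p = 0.241). Htra4, another secreted member, averaged 24.9 and 46.0 CPM without overlap (log2 fold change 0.88, adjusted p = 0.10). Htra2, the mitochondrial member, had a log2 fold change of 0.16 (adjusted p = 0.520). Of 13 dipeptidyl and prolyl peptidases, Dpp7 alone was called by edgeR, while DESeq2 called 3 higher and 3 lower and limma-voom 5 higher and 0 lower. Tpp1, the lysosomal tripeptidyl peptidase lacking in a childhood neuronal ceroid lipofuscinosis, averaged 309.8 and 582 CPM without overlap (log2 fold change 0.91, adjusted p = 0.0641). Fap, a membrane peptidase of activated fibroblasts, averaged 11.7 and 25.1 CPM without overlap (1.09, adjusted p = 0.0824), and its relative Dpp4 had a log2 fold change of -0.17. The enzymatically silent, neuron-expressed Dpp6 and Dpp10 had estimates of -4.98 (SE 1.60) and -5.75 (SE 1.82), neither called. Their levels stood out in vehicle animals 1 and 3, at 49.3 and 128 CPM for Dpp6 and 24.6 and 146 CPM for Dpp10, against at most 3.33 CPM in any other animal.

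All 10 tested M1 aminopeptidases (of 11) had log2 fold changes above 0, the lowest being 0.0169 for Lnpep. Of these, 3 were called, Lvrn (chosen for its rise), Anpep and Lta4h. The untested gene, Trhde, went the other way, with means of 5.26 CPM in vehicle (18.5 CPM in vehicle animal 3) and 0.215 CPM in HPβCD animals. Anpep, the membrane alanyl aminopeptidase CD13, had 296, 525, 345 and 399 CPM in the vehicle animals and 852, 863, 1053 and 645 CPM in the HPβCD animals (log2 fold change 1.12, SE 0.23, adjusted p = 0.0488). Lta4h, which makes leukotriene B4 and also acts as an aminopeptidase, had 70.7, 71.7, 61.1 and 70.0 CPM against 129, 104, 128 and 93.3 CPM (0.73, SE 0.14, adjusted p = 0.0483). Erap1, which trims peptides for antigen presentation, averaged 197 and 242 CPM (0.29, adjusted p = 0.539).

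Cpq had the highest mean CPM, not corrected for length, of the M28 and M20 exopeptidases, and none of 11 tested genes (of 13) was called by edgeR. An unadjusted p under 0.05 was found for 3 higher and 1 lower, and DESeq2 and limma-voom each called 1 higher and 1 lower. Cndp2, the cytosolic dipeptidase, came nearest, with means of 118 and 184.5 CPM, no overlap and an adjusted p of 0.0812. None of the 2 tested pancreatic-type A/B carboxypeptidases (of 8) was called by edgeR, DESeq2 or limma-voom, with mast cell carboxypeptidase Cpa3 at 2.59 and 2.33 CPM. None of 4 tested cytosolic carboxypeptidases (of 6) was called by edgeR or limma-voom, and 1 was called lower by DESeq2, with the tubulin deglutamylase Agtpbp1 at 97.6 and 49.3 CPM (adjusted p = 0.220). In these last 2 lists 0 genes had an unadjusted p under 0.05.

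**Figure D4:**
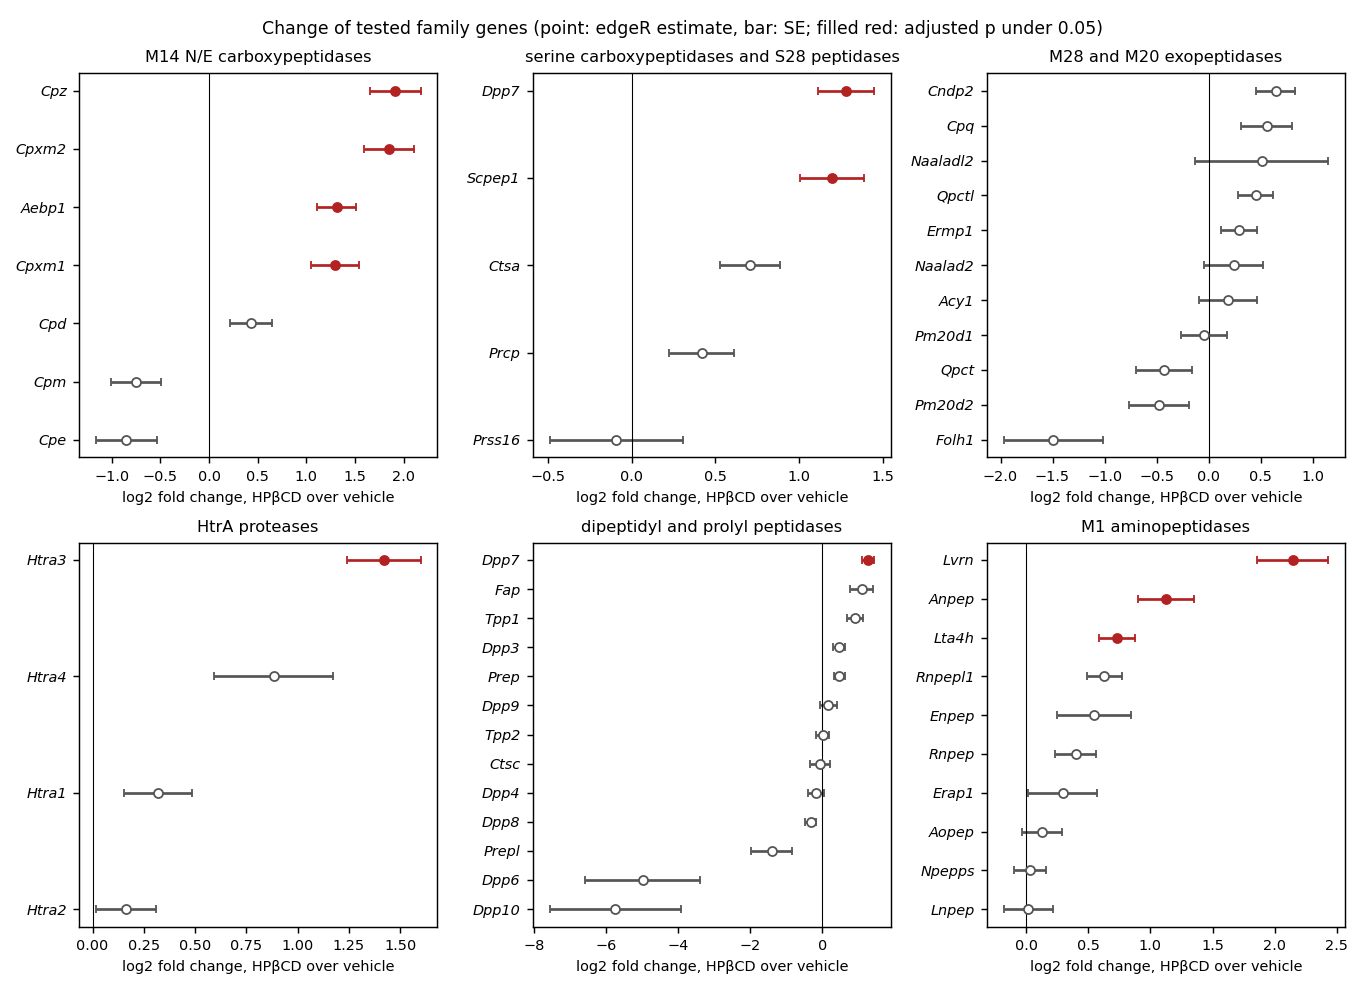
Log2 fold change (HPβCD over vehicle, horizontal axes of differing range) with its SE for the tested genes of 6 peptidase families, 1 panel per family, filled red where the adjusted p was under 0.05. The top gene of the N/E (Cpz), serine (Dpp7), HtrA (Htra3), dipeptidyl (Dpp7) and M1 (Lvrn) panels was chosen for its rise, so its lead follows from the choice. The M28 and M20 panel holds no chosen gene, and none of its 11 genes is filled.

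Substrates and partners of these enzymes were read from 4 further lists with 27 of 30 genes tested, of which edgeR called 2 higher and none lower, with a median log2 fold change of -0.33. At an unadjusted p under 0.05 there were 8 higher and 11 lower, DESeq2 called 5 higher and 9 lower, and limma-voom 6 and 4. The shares of all genes, higher and lower, were 1.17% and 0.774% called by edgeR, and 11.8% and 16% at that unadjusted p. With DESeq2 these shares were 5.92% and 11.1%, and with limma-voom 10.9% and 11.1%. Among 9 substrates and neighbours of HtrA proteases, Bgn, the proteoglycan biglycan, rose from 685 ± 159.7 to 1812 ± 430.2 CPM (log2 fold change 1.4, adjusted p = 0.0483). Fn1, fibronectin, had a log2 fold change of 0.96 (adjusted p = 0.0641), and Dcn, decorin, of 0.80 (adjusted p = 0.130). Of 8 tested kinin and angiotensin genes (of 10), Ace rose from 76.8 ± 17.9 to 191 ± 39.7 CPM (1.31, adjusted p = 0.0436). Ace encodes the peptidyl-dipeptidase that makes angiotensin II and degrades bradykinin, cutting C-terminal residues off in pairs. Mme, neprilysin, averaged 84.4 and 53.7 CPM (-0.65, adjusted p = 0.306). Ace, like Prcp, acts on angiotensin peptides, and Prcp was not called.

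None of the 8 tested prohormone processing genes (of 9), which work with Cpe, was called, and their median log2 fold change was -3.47. Of these genes 7 had an unadjusted p under 0.05 in the lower direction, DESeq2 called 7 lower and limma-voom 2, against 16%, 11.1% and 11.1% of all genes. Pam, the amidating enzyme with the highest mean CPM of them, not corrected for length, averaged 319.8 and 362 CPM (0.18, adjusted p = 0.626). Pcsk1, a prohormone convertase, had a log2 fold change of -3.19 (adjusted p = 0.0568). The summed level of the list was 720.0 and 1262 CPM in vehicle animals 1 and 3 and between 339 and 494.5 CPM in the other 6. Of the 2 carboxypeptidase inhibitors, neither was called, with Lxn, latexin, at -0.55 (adjusted p = 0.165).

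The 12 calls over all lists were lost under the same leave-outs as those of the peptidase genes, that is without vehicle animal 1 or 4 or HPβCD animal 1, 2 or 3. Without vehicle animals 1 and 3, Aebp1 (adjusted p = 0.0452) and Scpep1 (adjusted p = 0.0495) remained called, Anpep, Lta4h, Bgn and Ace did not, and Cpm was newly called lower (log2 fold change -1.05, adjusted p = 0.0452).

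Cpz and Htra3 lie 126 kb apart on chromosome 5, both on the minus strand, a proximity noticed after their values were seen. The 5 annotated genes in the gap include 2 tested ones. Acox3, a peroxisomal acyl-CoA oxidase, averaged 77.2 and 125 CPM without overlap (log2 fold change 0.70, SE 0.16, adjusted p = 0.0599), and Trmt44, a tRNA methyltransferase, averaged 2.45 and 2.24 CPM (-0.12, adjusted p = 0.805). Neither was called. Htra1 and Cpxm2 also share a chromosome, 1047 kb apart.

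**Figure D5:**
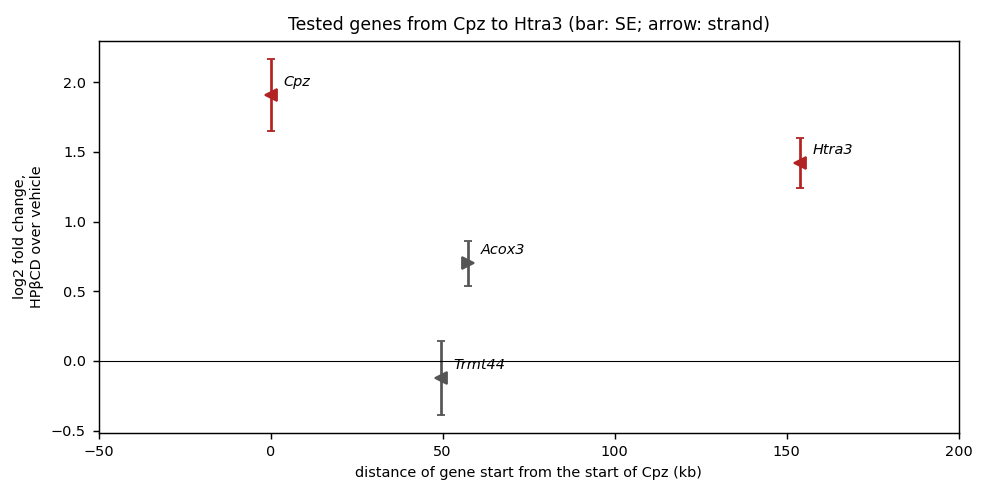
Log2 fold change with its SE (vertical axis) of Cpz, Htra3 and the 2 tested genes between them against the distance of each gene start from that of Cpz in kb (horizontal axis); arrowheads give the strand and Cpz and Htra3 are in red. Trmt44, between the 2 peptidase genes, lies at -0.12, below both.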

How the data were processed

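Infarct RNA was measured in 8 libraries, 1 per animal. Per the study's methods, stranded mRNA libraries were sequenced as paired ends, and the authors demultiplexed reads with bcl2fastq 2.19, trimmed them with Trimmomatic 0.32, aligned them to GRCm38 with STAR 2.5.2b and tallied reads over genes with htseq-count. The strand option, counter version and annotation release are not given in the sources used here. The deposited values are raw counts for 46078 identifiers, 45143 of them matched to symbols. Lines naming no gene (26.6% to 36.6% of a library) were left out.

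Groups and animal numbers came from the labels. Every 2 libraries differed by more than sampling noise (lowest chi-square per degree of freedom 18.9). The labels name no batch. Counts were tested with edgeR 4.0.16 in R 4.3.3 (robust quasi-likelihood F test, TMM, filterByExpr, Benjamini-Hochberg adjustment over all tested genes). A gene was called at an adjusted p under 0.05. CPM used TMM factors and log2 CPM a prior count of 2. Alternatives were DESeq2 1.42.0 (the study's tool), limma-voom with sample quality weights (limma 3.58.1), other scalings, no filter, an animal-number block and left-out animals. The procedure was tested on simulated data.

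Named genes were the members, called genes of the 12 lists, the most abundant uncalled relative of each list, and the 3 genes with the nearest profile to each member. Other names were chosen after their values were seen, among them Cpm, Cpd, Fap, Dpp4, Dpp6, Dpp10, Htra2, Htra4, Prss16, Cndp2, Pcsk1, Fn1, Dcn, Slc6a13, Dpt, the called cell type markers and the genes between Cpz and Htra3. The members and lists were chosen with earlier results of these data known. Gene positions are from GENCODE M21 on GRCm38. P-values measure the spread between these animals.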

Additional observations from a re-analysis of the deposited data

Results flagged for a closer look

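The log2 ratio of Htra3 to Htra1 in HPβCD animal 4 was -1.56, apart from -1.21 to -1.15 in the other 3 HPβCD animals. The gap to the nearest animal divided by the range of the group was 0.851, above the 95% limit of Dixon for a group of 4. Chance flags about 1 in 20 groups, or 1.5 of the 30 groups examined, and this was the only one found. The ratio of this animal remained above that of every vehicle animal.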

How the results depend on the processing

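All 10 peptidase genes kept the direction of their log2 fold change under the 15 alternatives. The number of genes called in the whole table, 287 (173 higher, 114 lower), was 2899 with DESeq2 (1009 higher, 1890 lower), 3253 with limma-voom and sample quality weights (tool and weights changed together), 11 with library totals as the only scaling, 9 with the replicate block (0 higher, 9 lower) and 0 to 629 with 1 animal left out. It was 202 (73 higher, 129 lower) without vehicle animals 1 and 3. Single-animal fits with no call still held 2922 to 4216 genes with an unadjusted p under 0.05. Of the 10 peptidase genes, 6 were called, against 1 with library totals alone (Lvrn), 0 with the replicate block in edgeR (8 with an unadjusted p under 0.05) and 0 to 6 with 1 animal left out. limma-voom called 8 of them, adding Htra1 (adjusted p = 0.0446) as higher and Cpe (adjusted p = 0.0376) as lower. Over the 12 lists, 12 genes were called, against 35 with DESeq2, 31 with limma-voom, 1 with library totals alone, 0 with the replicate block (40 with an unadjusted p under 0.05) and 0 to 15 with 1 animal left out. The log2 ratio of Cpe to Cpd differed by -1.63 to -0.98 with 1 animal left out, and the largest of these, without vehicle animal 2, gave an exact permutation p of 0.0286, while leaving out vehicle animals 1 and 3 gave -0.56 (p = 0.200). Same-numbered animals of the 2 groups correlated at -0.257, 0.244, 0.329 and 0.0975, and differently numbered ones at -0.386 to 0.346. With so few values, whether the numbers pair the animals cannot be decided. The cause of these changes was not tested. Lvrn, at 7 to 62 counts a library, is the gene most limited by depth.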

Other observations

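For each peptidase gene, the tested genes with the most similar profile were found by the root mean square difference of centred log2 CPM over the 8 animals, among 13216 candidates. Nearest to Cpz were Col1a1 (0.196), Ces2g (0.202) and Col14a1 (0.207), of which Col1a1 and Col14a1 encode collagens. Nearest to Htra3 were Creg1 (0.138), Vegfc (0.162) and Slc11a1 (0.164). Nearest to Lvrn were Ahnak2 (0.339), Gpx3 (0.383) and P2rx5 (0.390), farther away than for any other member. Lvrn had only 7 to 62 counts a library and the highest estimated log2 fold change of the members. The part of these 2 traits in its distances was not tested. Nearest to Dpp7 were Ftl1 (0.105), the ferritin light chain, and 2 relatives named in the report, Scpep1 (0.121) and Aebp1 (0.123).

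Cpxm1 was nearest to Dysf (0.0952), Thbs2 (0.107) and Lmx1b (0.126), and Cpxm2 to Mfap2 (0.162), a microfibril protein, Gdf10 (0.251) and Bgn (0.280). Cpe was nearest to Rftn2 (0.113), Pcsk6 (0.131) and Tmeff1 (0.136). Htra1 was nearest to Dnaaf5 (0.0733), Pigb (0.0844) and Apbb2 (0.0939), Cpq to Sgpl1 (0.0610), Adcy7 (0.0690) and Il7 (0.0883), and Prcp to Plscr1 (0.0411), Snx9 (0.0536) and Prps2 (0.0579). Among the members themselves, Cpq and Prcp were 0.146 apart, Htra3 and Dpp7 0.207, Htra3 and Cpxm1 0.266, and Cpz and Cpxm2 0.297. Cpe lay 0.76 to 1.55 from every other member. These distances describe 8 libraries and carry no test.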
